A study of Mus musculus with 9 samples.

Results

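A set of 10 genes of the goblet cell programme, Spdef, Foxa3, Creb3l1, Creb3l4, Klf4, Agr2, Ern2, Tpsg1, Sytl2 and Bcas1, were followed by RNA sequencing of the intestinal stem cell niche. They were chosen by name as regulators and secretory machinery of goblet cells, with earlier results of these data known. Shares over all genes printed beside their counts are therefore a description and not a test. All 10 of 10 were found by their NCBI gene numbers among 18220 rows. The niche is the crypt base, where stem cells lie beside Paneth cells, and it was cut from mouse ileum by laser microdissection. The groups, of 3 biological replicates each, were SAMP/YitFc mice aged 25 weeks with severe Crohn's-like ileitis (SAMP 25 wk), SAMP/YitFc mice aged 5 weeks before inflammation (SAMP 5 wk) and inflammation-free AKR mice aged 25 weeks (AKR 25 wk). Every mouse was labelled wild type, and SAMP/YitFc is an inbred strain that develops ileitis without a transgene. SAMP 25 wk differed from AKR 25 wk in strain as well as disease and from SAMP 5 wk in age as well as disease, and SAMP 5 wk differed from AKR 25 wk in strain and age. Within each comparison those factors cannot be told apart.

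Goblet cells make, fold, store and release mucus. Their fate starts with Atoh1 and Gfi1 in a secretory precursor, and SPDEF, an ETS-family transcription factor, drives maturation downstream of ATOH1 together with forkhead factors such as FOXA3. The mucin MUC2 is then folded and dimerised in the endoplasmic reticulum (ER), where AGR2, a protein disulphide isomerase, acts on it. The ER also holds IRE1-beta, the stress sensor encoded by Ern2. Filled granules are carried and docked by Rab27 with its effectors, among them the synaptotagmin-like protein encoded by Sytl2.

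The unit was FPKM, fragments scaled by transcript length and by the mapped fragments of the library, which allows levels to be compared between genes. Libraries held an estimated 6940000 to 10220000 reads, judged from the spacing of low values. All 10 members were above the minimum mean FPKM of 1 and were among the 11775 genes tested. The stem cell marker Lgr5 was at an FPKM of 9.62 to 14.3 in SAMP 25 wk, 17.4 to 23.4 in SAMP 5 wk libraries and 11.3 to 20.0 in AKR 25 wk libraries, and the Paneth marker Lyz1 at 5435 to 9141 in SAMP 25 wk, 20238 to 25857 in SAMP 5 wk libraries and 15074 to 36165 in AKR 25 wk libraries, so the markers of the labelled niche were present in every library. A pair of libraries stood apart. The AKR 25 wk library of replicate 2 held the enterocyte apolipoprotein Apoa1 at 1364, against 5.92 and 13.3 in the other AKR libraries. The SAMP 25 wk library of replicate 3 had Xist at 177, against 0.21 to 1.32 in the other 8 libraries, and the Y-linked Eif2s3y at 0.14, against 14.5 to 26.97. By these sex-linked genes that library read as female and the other 8 as male, so sex was mixed within SAMP 25 wk. What part sex had in the values was not tested.

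Promoter sequence is shown for 4 members that span the range of responses: Spdef and Foxa3, whose FPKM was higher in SAMP 25 wk libraries, Klf4, which was above SAMP 5 wk but overlapped AKR 25 wk libraries, and Agr2, which overlapped between all groups. The RefSeq promoter table of GRCm38.p6 (250 bases before to 50 after a transcript start) held 9 promoters for 6 of the 10 members. Capitals mark matches to a searched motif, on either strand, and each line reads 5′ to 3′ on the gene's own strand.
Spdef: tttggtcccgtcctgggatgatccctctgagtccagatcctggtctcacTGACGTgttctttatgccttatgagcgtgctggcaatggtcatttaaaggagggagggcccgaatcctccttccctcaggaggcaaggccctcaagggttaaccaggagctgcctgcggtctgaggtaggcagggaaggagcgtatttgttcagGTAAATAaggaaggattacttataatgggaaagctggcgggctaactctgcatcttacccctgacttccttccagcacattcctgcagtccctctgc
Foxa3: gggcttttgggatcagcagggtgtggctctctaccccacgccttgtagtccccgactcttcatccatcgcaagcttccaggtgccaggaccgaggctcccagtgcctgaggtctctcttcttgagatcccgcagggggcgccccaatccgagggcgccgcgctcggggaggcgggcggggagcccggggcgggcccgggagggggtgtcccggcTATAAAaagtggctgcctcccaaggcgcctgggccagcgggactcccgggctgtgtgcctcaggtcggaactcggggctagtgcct
Klf4: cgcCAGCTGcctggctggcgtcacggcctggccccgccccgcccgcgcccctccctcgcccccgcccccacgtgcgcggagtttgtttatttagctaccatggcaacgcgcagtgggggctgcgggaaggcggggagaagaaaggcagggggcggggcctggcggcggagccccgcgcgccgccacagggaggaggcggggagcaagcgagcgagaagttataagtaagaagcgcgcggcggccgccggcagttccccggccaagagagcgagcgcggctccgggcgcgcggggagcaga
Agr2: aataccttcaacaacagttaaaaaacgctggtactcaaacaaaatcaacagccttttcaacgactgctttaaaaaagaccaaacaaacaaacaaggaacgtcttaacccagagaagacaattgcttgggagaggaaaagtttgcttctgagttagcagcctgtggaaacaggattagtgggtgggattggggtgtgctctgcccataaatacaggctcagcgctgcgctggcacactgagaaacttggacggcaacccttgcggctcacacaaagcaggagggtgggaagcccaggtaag

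These windows lie at chr17:27728902-27729201 on the minus strand for Spdef, chr7:19023490-19023789 on the minus strand for Foxa3, chr4:55532426-55532725 on the minus strand for Klf4 and chr12:35992675-35992974 on the plus strand for Agr2. That of Spdef lies inside the annotated span of the gene, at a RefSeq start downstream of its outermost start. The Spdef window held TGACGT, the core bound by CREB-type factors, from 201 bases before the start, and the forkhead-type word TATTTAC on the reverse strand, printed as GTAAATA, 47 bases before it. The Foxa3 window held the TATA box word TATAAA 36 bases before its start, and the Klf4 window held the E-box CAGCTG at 247 bases before its start. No searched word was in the Agr2 window. The shares of 32851 mouse promoters of the same length with each word were 7.51% for TGACGT, 3.04% for TATTTAC, 13.6% for TATAAA and 16.3% for CAGCTG. The forkhead form TGTTTAC, in 3.65% of promoters, and the ETS core CCGGAT, in 6.04%, were in 0 of the 9 member promoters. These matches describe letters and show no binding.

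The members covered a wide range of levels. Agr2 averaged an FPKM of 1754 over the 9 libraries, rank 36 of 11775, far above Creb3l1 at 49.0 and Ern2 at 45.3. Spdef at 28.3, Sytl2 at 27.5 and Tpsg1 at 24.9 came next, followed by Klf4 at 17.7, Foxa3 at 15.5, Creb3l4 at 12.7 and Bcas1 at 11.9, rank 3976. The ER chaperone of mucin was thus the most abundant member, and the transcription factors were of moderate abundance. From Creb3l1 down, the values of each pair of neighbours in this order overlapped over the 9 libraries.

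Against AKR 25 wk, niches of SAMP 25 wk mice were higher in the FPKM of the goblet regulators Spdef, Foxa3 and Creb3l4 and of the membrane protease gene Tpsg1. The largest of these differences was 5.91-fold for the mean FPKM of Tpsg1, followed by 3.49-fold for Spdef. In total 4 of 10 members were called higher and 0 lower by limma's moderated test on log2(FPKM + 1) with Benjamini-Hochberg adjustment over all tested genes. Across all genes 1.59% were called higher and 1.35% lower. Every SAMP 25 wk library was above every AKR 25 wk library for 7 of 10 members, against 6.6% of all genes. The median log2 fold change was 0.91 for the members and -0.15 for all genes.

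Against SAMP 5 wk, the same niches were higher in Spdef, Foxa3, Creb3l4, Tpsg1 and Bcas1. The mean FPKM of Tpsg1 was 5.81-fold and that of Spdef 3.78-fold that of SAMP 5 wk. That made 5 of 10 members called higher and 0 lower, where 0.909% of all genes were called higher and 0.611% lower. Every SAMP 25 wk library was above every SAMP 5 wk library for 9 of 10 members, against 7.95% of all genes, with Agr2 the exception. The median log2 fold change was 1.02 for the members and -0.12 for all genes. Both comparisons use the same 3 SAMP 25 wk libraries, so their results are not independent of each other.

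Between the inflammation-free groups no member passed the threshold. For SAMP 5 wk against AKR 25 wk, 0 of 10 members were called in either direction, where 0.289% of all genes were called higher and 0.263% lower by limma, and 2 members and 880 genes had an unadjusted p below 0.05. Those members, Klf4 and Bcas1, were lower in every SAMP 5 wk library than in every AKR 25 wk library, as were 8.33% of all genes. The median log2 fold change was -0.17 for the members and -0.03 for all genes.

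Each comparison carried limits that touch these counts. With the AKR 25 wk library of replicate 1, the AKR 25 wk library of replicate 2 or the SAMP 25 wk library of replicate 2 left out, 2 members stayed past the threshold against AKR 25 wk, and with both libraries that stood apart left out, 0 did. Against SAMP 5 wk the count was 3 without AKR 25 wk replicate 1, 8 without AKR 25 wk replicate 2, 3 without SAMP 5 wk replicate 1, and 2 without SAMP 5 wk replicate 2, SAMP 5 wk replicate 3, SAMP 25 wk replicate 2 or SAMP 25 wk replicate 3, and 3 without both libraries that stood apart. The share of called genes that were higher was 54.0% against AKR 25 wk, but 26.0% after rescaling without ribosomal RNA and defensin rows, 64.9% after quantile normalization, 66.7% with equal medians, 24.3% of 2514 genes with library weights and 36.6% of 492 genes without SAMP 25 wk replicate 1. Against SAMP 5 wk that share was 59.8%, with 74.8% after that rescaling and 71.3% after quantile normalization. It was 79.2% of 130 genes without SAMP 5 wk replicate 1, but 34.3% of 2297 genes with library weights and 27.8% of 528 genes without SAMP 25 wk replicate 1, so most called genes were lower under those settings. For SAMP 5 wk against AKR 25 wk it was 52.3%, with 21.6% after that rescaling and 34.9% without SAMP 5 wk replicate 1.

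**Figure D1:**
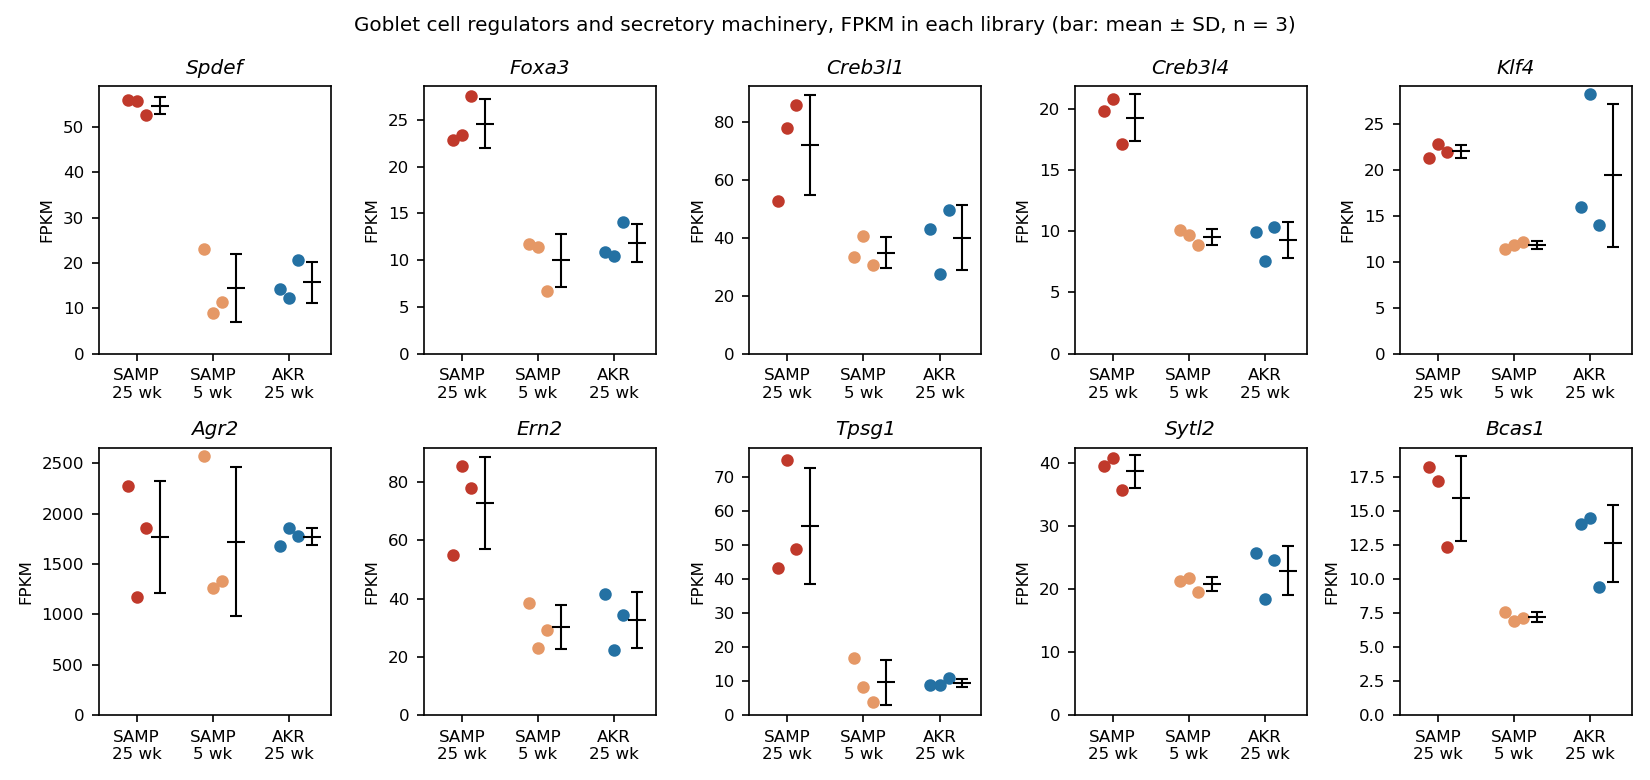
FPKM (y axis, linear from 0) of the 10 genes in each library, with SAMP 25 wk at the left, then SAMP 5 wk and AKR 25 wk; dots are libraries and black bars the mean ± SD of 3. Spdef at 52.5 to 55.9 and Tpsg1 at 43.3 to 75.2 in SAMP 25 wk libraries lie clear of every other library, while Agr2 overlaps between all groups.

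Spdef, the ETS factor of goblet maturation, had an FPKM of 55.9, 55.6 and 52.5 in SAMP 25 wk libraries, 22.98, 9.01 and 11.4 in SAMP 5 wk libraries and 14.2, 12.2 and 20.7 in AKR 25 wk libraries. Its SAMP 25 wk values were the highest of all 9 libraries and varied by a coefficient of variation of 3.40%, against 51.7% in SAMP 5 wk and 28.4% in AKR 25 wk. The log2 fold change was 1.77 ± 0.31 (SE) over AKR 25 wk, with an adjusted p of 0.00788 by limma, and 1.95 ± 0.31 over SAMP 5 wk, with an adjusted p of 0.00717. SAMP 5 wk and AKR 25 wk overlapped, with a log2 fold change of -0.18 ± 0.31. The call over AKR 25 wk ended in 1 of 21 alternatives, the one without both libraries that stood apart, where the log2 fold change was 1.65 and the adjusted p 0.104. The call over SAMP 5 wk held in all 21. The Spdef gene spans chr17:27714446-27731003 on the minus strand.

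Foxa3, a forkhead factor expressed in goblet cells, stood at 22.8, 23.4 and 27.6 in SAMP 25 wk libraries, 11.7, 11.5 and 6.70 in SAMP 5 wk libraries and 10.9, 10.4 and 14.1 in AKR 25 wk libraries. The SAMP 25 wk libraries did not overlap with the others, and the other groups overlapped with each other. Its log2 fold change was 1.005 ± 0.23 over AKR 25 wk (adjusted p = 0.0416, limma) and 1.25 ± 0.23 over SAMP 5 wk (adjusted p = 0.0220). Both calls were lost under several alternatives while the fold changes stayed close: with 1 library left out, the log2 fold change was 0.92 to 1.13 over AKR 25 wk and 1.02 to 1.38 over SAMP 5 wk. Over AKR 25 wk the adjusted p was 0.145, 0.132 or 0.0551 without AKR 25 wk replicate 1, 2 or 3, 0.0609 without SAMP 5 wk replicate 2, and 0.0990 or 0.157 without SAMP 25 wk replicate 2 or 3. It was also 0.0720 without a filter on low values, 0.0657 as TPM, 0.0614 after rescaling without ribosomal RNA and defensin rows, 0.0538 when only those groups were fitted and 0.299 without both libraries that stood apart. For the SAMP 5 wk comparison it was 0.0509 or 0.0889 without SAMP 5 wk replicate 2 or 3 and 0.0669 or 0.0946 without SAMP 25 wk replicate 2 or 3, 0.0542 without a filter and 0.0945 without both libraries that stood apart. Foxa3 lies at chr7:19013283-19023539 on the minus strand. The ratio of Spdef to Foxa3 within a library was 1.90 to 2.45 in SAMP 25 wk, 0.787 to 1.96 in SAMP 5 wk libraries and 1.17 to 1.47 in AKR 25 wk, so SAMP 25 wk lay above AKR 25 wk and overlapped with SAMP 5 wk.

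Creb3l4 and Creb3l1 encode transcription factors of the CREB3 family that are held in the ER membrane and released by proteolysis, and the product of Creb3l1, OASIS, is needed for goblet cells of the mouse colon to mature. Creb3l4 was at an FPKM of 19.9, 20.9 and 17.2 in SAMP 25 wk libraries, 10.1, 9.67 and 8.87 in SAMP 5 wk libraries and 9.93, 7.60 and 10.4 in AKR 25 wk libraries. SAMP 25 wk was above both other groups with no overlap, by a log2 fold change of 0.99 ± 0.19 over AKR 25 wk (adjusted p = 0.0171, limma) and 0.94 ± 0.19 over SAMP 5 wk (adjusted p = 0.0335). Over AKR 25 wk its adjusted p was 0.0547 or 0.0656 without AKR 25 wk replicate 1 or 2 and 0.0638 without SAMP 25 wk replicate 2, 0.0580 when only those groups were fitted and 0.116 without both libraries that stood apart. In the SAMP 5 wk comparison it was 0.0645 or 0.0501 without AKR 25 wk replicate 1 or 3, 0.0740, 0.126 or 0.140 without SAMP 5 wk replicate 1, 2 or 3, and 0.123 or 0.0744 without SAMP 25 wk replicate 2 or 3. That adjusted p was also 0.0501 without a filter, 0.0570 when only those groups were fitted and 0.0582 without both libraries that stood apart. With 1 library left out, the log2 fold change was 0.86 to 1.06 over AKR 25 wk and 0.89 to 1.02 over SAMP 5 wk.

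Creb3l1 was at an FPKM of 52.7, 77.8 and 85.9 in SAMP 25 wk libraries, 33.3, 40.8 and 30.6 in SAMP 5 wk libraries and 42.9, 27.7 and 49.7 in AKR 25 wk libraries. Every SAMP 25 wk library was higher, though the lowest of them was close to the highest AKR 25 wk library. Its log2 fold changes of 0.84 ± 0.27 over AKR 25 wk and 1.01 ± 0.27 over SAMP 5 wk did not pass the threshold, with adjusted p of 0.137 and 0.0907 by limma. Without SAMP 25 wk replicate 1 they were 1.05 and 1.22, with adjusted p of 0.0476 and 0.0330, and with library weights the adjusted p was 0.00296 and 0.00105. Creb3l1 passed in only these 2 of 21 alternatives in each comparison. In the others its adjusted p reached 0.609 over AKR 25 wk and 0.276 over SAMP 5 wk by limma. The ratio of Creb3l4 to Creb3l1 was 0.1998 to 0.377 in SAMP 25 wk, 0.237 to 0.303 in SAMP 5 wk libraries and 0.209 to 0.275 in AKR 25 wk libraries, with overlap between all groups. Creb3l4 lies at chr3:90237498-90244582 and Creb3l1 at chr2:91982328-92024170, both on the minus strand.

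Klf4, a zinc finger factor needed for goblet cell differentiation in the mouse colon and also active in differentiated enterocytes, did not separate SAMP 25 wk from AKR 25 wk. It was at an FPKM of 21.3, 22.8 and 21.9 in SAMP 25 wk libraries, 11.4, 11.8 and 12.2 in SAMP 5 wk libraries and 15.9, 28.3 and 14.0 in AKR 25 wk libraries. SAMP 25 wk was above SAMP 5 wk with little spread in either, while the AKR 25 wk group spanned the SAMP 25 wk values through replicate 2, the library with the highest Apoa1. The log2 fold change over AKR 25 wk was 0.24 ± 0.24, with a 95% interval from -0.29 to 0.77. Without that library it was 0.53, with an adjusted p of 0.27 by limma, and what part enterocyte RNA had in its Klf4 value was not tested. Over SAMP 5 wk it was 0.85 ± 0.24 with an adjusted p of 0.116 by limma, and without AKR 25 wk replicate 2, which enters only through the shared variance, the adjusted p was 0.0357. It was 0.0446 after quantile normalization and 0.00445 with library weights. Klf4 passed over SAMP 5 wk in only these 3 of 21 alternatives, and in the others the adjusted p reached 0.313. For SAMP 5 wk over AKR 25 wk the log2 fold change was -0.61 ± 0.24 with an adjusted p of 0.564. Klf4 lies at chr4:55527137-55532475 on the minus strand.

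**Figure D2:**
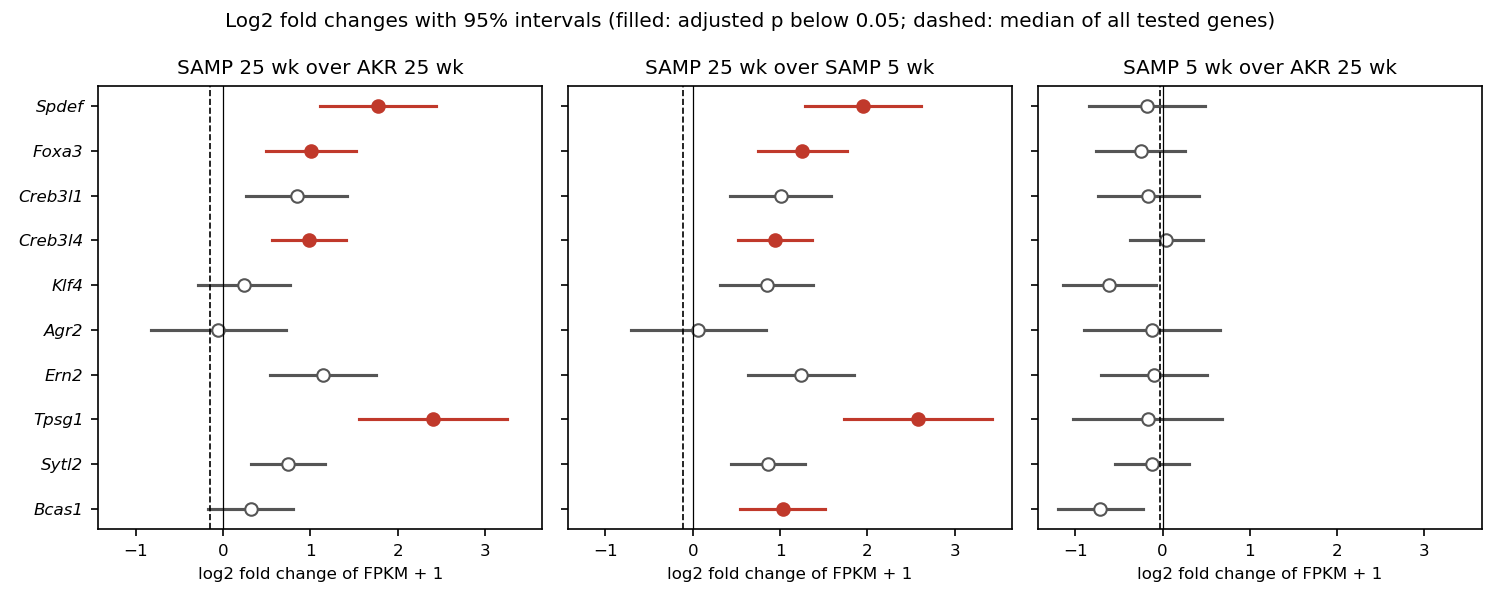
Log2 fold change of FPKM + 1 (x axis) of each gene with its 95% interval, for SAMP 25 wk over AKR 25 wk, SAMP 25 wk over SAMP 5 wk and SAMP 5 wk over AKR 25 wk; filled points had an adjusted p below 0.05 and the dashed line is the median of all tested genes. Spdef at 1.77 and 1.95 and Tpsg1 at 2.41 and 2.58 are farthest to the right in the panels of SAMP 25 wk, Agr2 is at -0.05 and 0.07, and no gene is filled in the panel at the right.

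Agr2, whose product forms mixed disulphides with MUC2 in the mouse intestine, stood at an FPKM of 2275, 1172 and 1858 in SAMP 25 wk libraries, 2577, 1263 and 1328 in SAMP 5 wk libraries and 1684, 1854 and 1773 in AKR 25 wk libraries. The 3 groups overlapped, and the highest and lowest values both came from SAMP mice. The log2 fold change was -0.05 ± 0.36 over AKR 25 wk, with a 95% interval from -0.83 to 0.72 and an adjusted p of 0.962 by limma. Relative to SAMP 5 wk it was 0.07 ± 0.36, with an interval from -0.71 to 0.84. A change within these bounds cannot be told from none at this spread. The estimated reads behind Agr2 were 6313 to 14293 per library, against 44 to 627 for Tpsg1. The gene lies at chr12:35992925-36004081 on the plus strand.

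Ratios within a library do not depend on the scaling of that library, so the other members were set against Agr2. Per 1000 FPKM of Agr2, Spdef was at 24.6 to 47.5 in SAMP 25 wk, 7.14 to 8.92 in SAMP 5 wk libraries and 6.57 to 11.7 in AKR 25 wk libraries. Tpsg1 was at 19.0 to 64.2 in SAMP 25 wk, 2.85 to 6.58 in SAMP 5 wk libraries and 4.76 to 6.09 in AKR 25 wk. Foxa3 was at 10.02 to 19.9 in SAMP 25 wk, 4.55 to 9.07 in SAMP 5 wk libraries and 5.61 to 7.95 in AKR 25 wk. The ratio of Spdef, Tpsg1, Foxa3, Creb3l4 and Sytl2 to Agr2 was higher in every SAMP 25 wk library than in all 6 others. The ratios of Creb3l1, Klf4 and Bcas1 to Agr2 overlapped with at least 1 other group, and so did that of Ern2, at 24.2 to 72.9 in SAMP 25 wk, 14.9 to 22.002 in SAMP 5 wk libraries and 12.1 to 24.6 in AKR 25 wk.

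Ern2 encodes the epithelial form of the ER stress sensor IRE1. Its FPKM was 55.0, 85.5 and 77.9 in SAMP 25 wk libraries, 38.4, 23.2 and 29.2 in SAMP 5 wk libraries and 41.5, 22.5 and 34.4 in AKR 25 wk libraries. All SAMP 25 wk libraries were above all others, and the other groups overlapped. The log2 fold changes of 1.15 ± 0.28 over AKR 25 wk and 1.24 ± 0.28 over SAMP 5 wk missed the threshold narrowly, with adjusted p of 0.0508 and 0.0517 by limma. Without SAMP 25 wk replicate 1 the adjusted p was 0.0277 and 0.0276. It was 0.0490 over AKR 25 wk without SAMP 5 wk replicate 1, and 0.0283 over SAMP 5 wk without AKR 25 wk replicate 2. Quantile normalization, equal medians, robust variance and library weights gave 0.00224 to 0.0470 over AKR 25 wk and 0.000414 to 0.0482 over SAMP 5 wk. A minimum mean FPKM of 5 gave 0.0498 over AKR 25 wk, and rescaling to TPM or without ribosomal RNA and defensin rows gave 0.0475 or 0.0310 over SAMP 5 wk. Ern2 thus passed in 7 of 21 alternatives over AKR 25 wk and in 8 of 21 over SAMP 5 wk. In the others its adjusted p reached 0.335 and 0.202 by limma. Ern2 lies at chr7:122169893-122186239 on the minus strand.

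Ern1, the form of IRE1 found in most tissues, was at an FPKM of 7.45, 13.8 and 10.8 in SAMP 25 wk libraries, 8.40, 5.55 and 5.04 in SAMP 5 wk libraries and 7.36, 8.03 and 9.86 in AKR 25 wk libraries, with overlap. Its log2 fold change was 0.28 ± 0.26 over AKR 25 wk and 0.66 ± 0.26 over SAMP 5 wk, and neither passed the threshold. The ratio of Ern2 to Ern1 was 6.18 to 7.38 in SAMP 25 wk, above 4.17 to 5.80 in SAMP 5 wk libraries and 2.80 to 5.63 in AKR 25 wk libraries. No test of the difference between the paralogs was made.

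Tpsg1 encodes tryptase gamma, a serine protease anchored in the membrane that was described in mast cells. Its FPKM was 43.3, 75.2 and 48.8 in SAMP 25 wk libraries, 16.7, 8.31 and 3.78 in SAMP 5 wk libraries and 8.72, 8.82 and 10.8 in AKR 25 wk libraries. The SAMP 25 wk libraries were far above both other groups, which overlapped. The log2 fold change was 2.41 ± 0.39 over AKR 25 wk (adjusted p = 0.00503, limma) and 2.58 ± 0.39 over SAMP 5 wk (adjusted p = 0.00569). Over SAMP 5 wk the call held in all 21 alternatives, and over AKR 25 wk in 20, the exception being the fit without both libraries that stood apart, where the log2 fold change was 2.44 and the adjusted p 0.0608. Tpsg1 lies at chr17:25369195-25374442 on the plus strand and shares exonic sequence with Cacna1h on the other strand. Strand use was not stated, and Cacna1h was at an FPKM of 0.39 to 2.30 over all libraries.

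Mast cell genes were read beside Tpsg1. Of 10 such markers 8 were in the table, and their summed FPKM was 48.3 to 68.3 in SAMP 25 wk, 13.5 to 22.5 in SAMP 5 wk libraries and 13.5 to 19.5 in AKR 25 wk libraries. Nearly all of this was Kit, a receptor of mast cells that other cell types also carry, at 47.2 to 64.4 in SAMP 25 wk, 12.8 to 18.4 in SAMP 5 wk libraries and 8.39 to 18.6 in AKR 25 wk. Kit was the only marker of the list above the minimum for testing, and it was called higher in both comparisons of SAMP 25 wk, by 1.82 ± 0.29 on the log2 scale over AKR 25 wk and 1.72 ± 0.29 over SAMP 5 wk. In SAMP 25 wk libraries the mast cell proteases Cma1 and Mcpt4 and the IgE receptor chain Fcer1a were listed at 0, and Cpa3 was at 0.08 to 0.17. Mcpt2 was at 0.51, 2.49 and 0.53 in SAMP 25 wk libraries, listed at 0 in SAMP 5 wk libraries and at 0.12, 0.86 and 0 in AKR 25 wk libraries. Mcpt1 was at 0.71, 0 and 0 in SAMP 25 wk libraries, 1.47, 0 and 0 in SAMP 5 wk libraries and 0.23, 4.28 and 0 in AKR 25 wk libraries. Tpsb2, a secreted tryptase, was at 0.11, 1.30 and 0.35 in SAMP 25 wk libraries and listed at 0 in the others. Of the other transmembrane and pancreatic-type serine proteases, 9 of 14 listed were tested and 0 were called in any comparison, with median log2 fold changes of -0.60 over AKR 25 wk and -0.39 over SAMP 5 wk. With at most 1.59% of all genes called in 1 direction, 0 of 9 does not set the list apart. At an unadjusted p below 0.05 by limma were 6 over AKR 25 wk and 4 over SAMP 5 wk, against 1828 and 1948 of all 11775 genes. Both list counts were above the share of all genes, and the list moved in both directions. Tmprss2 came closest to the threshold, at 0.88 over AKR 25 wk (adjusted p = 0.0519) and 0.66 over SAMP 5 wk (adjusted p = 0.168). Prss8 was also higher over AKR 25 wk, at 0.47. St14, Prss27, Prss30 and Prss32 were lower there, at -0.62, -1.35, -1.92 and -1.03.

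Sytl2 encodes a Rab27 effector that tethers secretory vesicles to the plasma membrane. Its FPKM was 39.5, 40.9 and 35.8 in SAMP 25 wk libraries, 21.3, 21.7 and 19.6 in SAMP 5 wk libraries and 25.7, 18.5 and 24.6 in AKR 25 wk libraries. SAMP 25 wk was above both other groups in every library and its coefficient of variation was 6.80%. The log2 fold changes of 0.74 ± 0.19 over AKR 25 wk and 0.86 ± 0.19 over SAMP 5 wk had adjusted p of 0.0685 and 0.0523 by limma and were not called. Over SAMP 5 wk the adjusted p was 0.0346 without AKR 25 wk replicate 2 and 0.0464 without SAMP 25 wk replicate 1. Quantile normalization, equal medians and library weights gave 0.0125 to 0.0305 over AKR 25 wk and 0.00280 to 0.0275 over SAMP 5 wk. In the SAMP 5 wk comparison it was also 0.0482 with a pseudocount of 5, 0.0494 with a minimum mean FPKM of 5 and 0.0248 after rescaling without ribosomal RNA and defensin rows. Sytl2 thus passed in 3 of 21 alternatives over AKR 25 wk and in 8 of 21 over SAMP 5 wk. In the others its adjusted p reached 0.294 and 0.192 by limma. Sytl2 lies at chr7:90302211-90410719 on the plus strand, and its row covers 5 RefSeq transcripts.

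Bcas1 is best known from oligodendrocytes, where its product is a marker of early myelination. Its FPKM was 18.2, 17.2 and 12.4 in SAMP 25 wk libraries, 7.58, 6.89 and 7.12 in SAMP 5 wk libraries and 14.0, 14.5 and 9.38 in AKR 25 wk libraries. SAMP 25 wk overlapped with AKR 25 wk and was clear of SAMP 5 wk, which was also below AKR 25 wk in every library. The log2 fold change was 0.32 ± 0.22 over AKR 25 wk (adjusted p = 0.525, limma) and 1.03 ± 0.22 over SAMP 5 wk (adjusted p = 0.0465), and for SAMP 5 wk over AKR 25 wk it was -0.71 ± 0.22 (adjusted p = 0.366). The call over SAMP 5 wk was lost in 11 of 21 alternatives, while its log2 fold change with 1 library left out was 0.93 to 1.19. Its adjusted p was 0.0734 without AKR 25 wk replicate 1, 0.0945, 0.173 or 0.149 without SAMP 5 wk replicate 1, 2 or 3, and 0.0531, 0.159 or 0.0539 without SAMP 25 wk replicate 1, 2 or 3. It was also 0.0508 with a pseudocount of 0.1, 0.0846 without a filter, 0.0555 as TPM and 0.0570 when only those groups were fitted. For SAMP 5 wk over AKR 25 wk, the adjusted p was 0.0330 after rescaling without ribosomal RNA and defensin rows.

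Glial genes were at or near 0 beside Bcas1. Of the enteric glia markers, Sox10 was at most 0.32 and Gfap at most 0.14 in any library, and the sum over 3 markers was 0 to 0.19 in SAMP 25 wk, 0.04 to 0.50 in SAMP 5 wk libraries and 0.05 to 0.15 in AKR 25 wk libraries. Bcas1 lies at chr2:170343973-170427911 on the minus strand and shares exonic sequence with the antisense genes Bcas1os1 and Bcas1os2, of which Bcas1os2 was at an FPKM of at most 0.21.

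Beside Sytl2, which was not called, 3 genes of the granule machinery rose in SAMP 25 wk. Of 25 other genes of granule docking and exocytosis that were tested, Rab27a, Mlph and Myrip were called higher and 0 lower over AKR 25 wk, and the count and the genes were the same over SAMP 5 wk. The list median was 0.02 over AKR 25 wk and 0.18 over SAMP 5 wk, and for SAMP 5 wk over AKR 25 wk 0 were called with a median of -0.08. Rab27a is a small GTPase of secretory vesicles, and Mlph (melanophilin) and Myrip link Rab27 vesicles to myosin motors. The other tested Rab27 and Rab27 effector genes of the list, Rab27b, Exph5, Sytl1, Sytl3, Sytl4 and Sytl5, were not called in any comparison. Rab27b came closest, with a log2 fold change of 0.81 over AKR 25 wk (adjusted p = 0.0883, limma) and 0.89 over SAMP 5 wk (adjusted p = 0.0818).

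Rab27a was at an FPKM of 20.3, 22.6 and 12.99 in SAMP 25 wk libraries, 6.75, 7.38 and 7.85 in SAMP 5 wk libraries and 7.39, 6.38 and 9.23 in AKR 25 wk libraries. Its log2 fold change was 1.16 ± 0.23 over AKR 25 wk (adjusted p = 0.0198, limma) and 1.21 ± 0.23 over SAMP 5 wk (adjusted p = 0.0268). Mlph was at 28.1, 29.9 and 26.5 in SAMP 25 wk, 13.2, 11.3 and 10.9 in SAMP 5 wk and 12.6, 12.7 and 11.9 in AKR 25 wk libraries. Both genes were higher in each SAMP 25 wk library than in any other library. For Mlph the log2 fold change was 1.12 ± 0.18 over AKR 25 wk (adjusted p = 0.00456) and 1.19 ± 0.18 over SAMP 5 wk (adjusted p = 0.00537). Myrip was at 7.00, 14.8 and 5.52 in SAMP 25 wk, 1.29 to 2.88 in SAMP 5 wk libraries and 1.77 to 2.90 in AKR 25 wk libraries. Its log2 fold change was 1.43 ± 0.33 over AKR 25 wk (adjusted p = 0.0396, limma) and 1.62 ± 0.33 over SAMP 5 wk (adjusted p = 0.0349). The calls of these 3 genes were not followed through the alternatives used for the members.

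**Figure D3:**
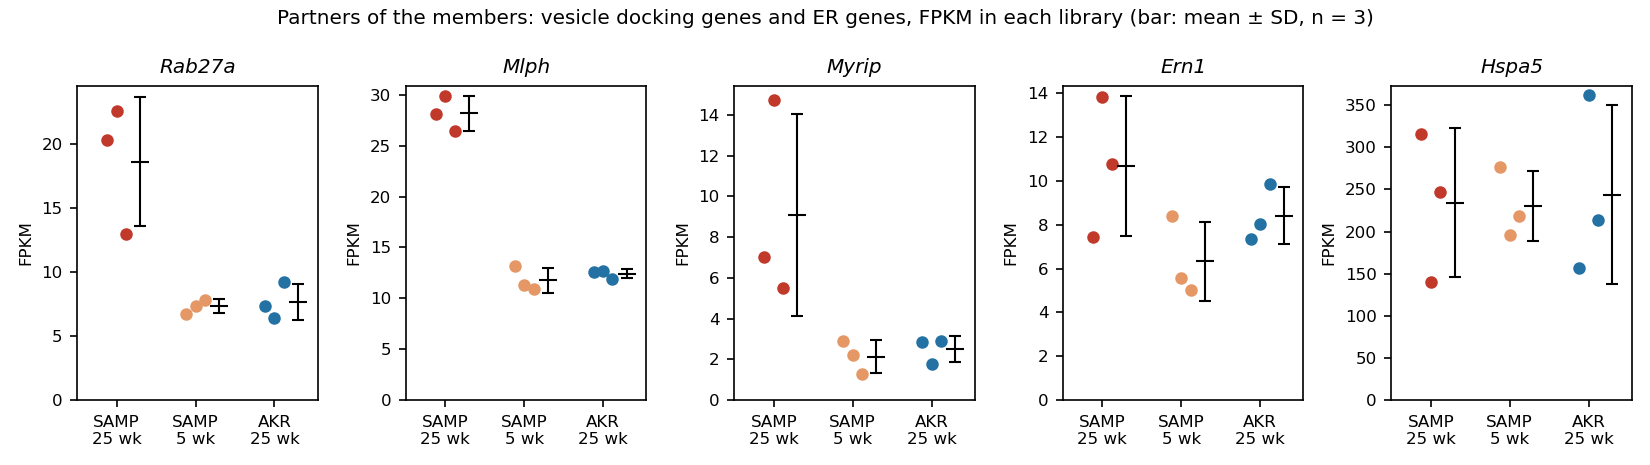
FPKM (y axis, linear from 0) in each library of the docking genes Rab27a, Mlph and Myrip and of the ER genes Ern1 and Hspa5, with SAMP 25 wk at the left, then SAMP 5 wk and AKR 25 wk; dots are libraries and black bars the mean ± SD of 3. The docking genes are clear of the other groups in SAMP 25 wk, with Mlph at 26.5 to 29.9, while Ern1 and Hspa5 overlap between groups.

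The folding and export machinery of the ER showed no called gene. Of 36 tested genes of ER folding and export, 0 were called in any of the 3 comparisons by limma. At an unadjusted p below 0.05 were 1, 3 and 0 over AKR 25 wk, over SAMP 5 wk and for SAMP 5 wk over AKR 25 wk. Among all 11775 genes these counts were 1828, 1948 and 880. The shares of all genes called higher or lower were 1.59% or 1.35%, 0.909% or 0.611%, and 0.289% or 0.263%. At such shares, 0 calls among 36 genes does not set the list apart. The list medians were 0.07, 0.12 and 0.01 on the log2 scale. The chaperone Hspa5 (BiP) was at an FPKM of 315, 139.9 and 247 in SAMP 25 wk libraries, 276, 196 and 219 in SAMP 5 wk libraries and 157, 362 and 213 in AKR 25 wk libraries. Its log2 fold change was -0.05 ± 0.36 over AKR 25 wk and -0.04 ± 0.36 over SAMP 5 wk, with overlap between all groups.

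Of 12 ER stress sensors and further CREB3 family genes, 0 were called over AKR 25 wk and 1 was called higher over SAMP 5 wk, with medians of 0.04 and 0.05. With 12 genes, 0 calls over AKR 25 wk does not set this list apart either. The called gene was Ddit3, which encodes the stress factor CHOP, at 9.85, 7.63 and 10.6 in SAMP 25 wk libraries and 4.67, 2.63 and 2.60 in SAMP 5 wk libraries. Its log2 fold change was 1.29 ± 0.28 with an adjusted p of 0.0465 by limma. Over AKR 25 wk it was 0.34 ± 0.28, with AKR 25 wk libraries at 5.21 to 10.8. Xbp1, the transcript that IRE1 splices, was at 81.4 to 92.8 in SAMP 25 wk, 81.1 to 108 in SAMP 5 wk libraries and 83.6 to 103 in AKR 25 wk libraries, with log2 fold changes of -0.02 ± 0.20 over AKR 25 wk and -0.09 ± 0.20 over SAMP 5 wk. The FPKM table does not separate its spliced form.

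Upstream of the members, Atoh1 was at an FPKM of 26.9, 41.02 and 33.6 in SAMP 25 wk libraries, 14.5, 20.5 and 16.7 in SAMP 5 wk libraries and 19.7, 14.5 and 26.2 in AKR 25 wk libraries. Each SAMP 25 wk library was above the others, the lowest only just. The log2 fold changes of 0.74 ± 0.25 over AKR 25 wk and 0.93 ± 0.25 over SAMP 5 wk were not called, with adjusted p of 0.171 and 0.101 by limma. Gfi1, at 4.03 to 5.45 in SAMP 25 wk, 0.94 to 4.18 in SAMP 5 wk libraries and 1.30 to 2.91 in AKR 25 wk, was not called either. The ratio of Spdef to Atoh1 was 1.36 to 2.08 in SAMP 25 wk, 0.440 to 1.59 in SAMP 5 wk libraries and 0.717 to 0.841 in AKR 25 wk, so it was clear of AKR 25 wk and overlapped with SAMP 5 wk. The list of goblet regulators also held broader fate factors of the epithelium, such as Hes1, Hnf4a and Neurog3. Of its 17 tested genes that are not members, 0 were called in any comparison by limma, with medians of 0.03, 0.14 and -0.06. These medians join both directions. Over AKR 25 wk Bhlha15 was at 1.11 and Foxa1 at 0.62 on the log2 scale, but Klf5 at -0.76 and Hnf4a at -0.58. At most 1.59% of all genes were called in 1 direction, so 0 of 17 does not set them apart. At an unadjusted p below 0.05, in either direction, were 7 over AKR 25 wk, 8 over SAMP 5 wk and 1 for SAMP 5 wk over AKR 25 wk. Over all 11775 genes these counts were 1828, 1948 and 880, so the first 2 list counts were above the share of all genes.

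The cargo of goblet cells moved in both directions. Of 13 tested cargo genes, 6 were called higher and 3 lower over AKR 25 wk, 5 higher and 2 lower over SAMP 5 wk, and 1 higher and 0 lower for SAMP 5 wk over AKR 25 wk. The higher ones over AKR 25 wk were Muc2, the gel-forming mucin, Clca1, Spink4, Retnlb, Klk1 and Reg4. The lower ones were Tff3, the trefoil peptide, Fcgbp and Zg16, which encode proteins of the mucus gel and the granule. Relative to SAMP 5 wk the higher ones were Muc2, Spink4, Retnlb, Klk1 and Reg4 and the lower ones Fcgbp and Zg16, and Retnlb was the gene higher in SAMP 5 wk than in AKR 25 wk. Klk1 belongs to a large family of similar genes, between which reads may be split. The list median was 1.16 over AKR 25 wk and 1.02 over SAMP 5 wk.

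Muc2 was at an FPKM of 2406, 2181 and 1938 in SAMP 25 wk libraries, 779, 517 and 569 in SAMP 5 wk libraries and 917, 1096 and 898 in AKR 25 wk libraries. It was clear of both groups in SAMP 25 wk, by a log2 fold change of 1.16 ± 0.27 over AKR 25 wk (adjusted p = 0.0364, limma) and 1.82 ± 0.27 over SAMP 5 wk (adjusted p = 0.00476). Zg16, a lectin-like granule protein, was at 34.5, 12.9 and 9.96 in SAMP 25 wk libraries, 780.0, 307 and 391 in SAMP 5 wk libraries and 869.9, 2497 and 569 in AKR 25 wk libraries. It fell by 5.94 on the log2 scale relative to AKR 25 wk and by 4.70 relative to SAMP 5 wk, with adjusted p of 7.7e-05 and 0.00135. Tff3 was at 382, 111 and 341 in SAMP 25 wk, 954, 620.0 and 730.0 in SAMP 5 wk and 831, 1194 and 729.8 in AKR 25 wk libraries, a log2 fold change of -1.88 ± 0.42 over AKR 25 wk (adjusted p = 0.0352) and -1.63 ± 0.42 over SAMP 5 wk (adjusted p = 0.0877, not called). Clca1 was at 812 to 2308 in SAMP 25 wk, 102 to 381 in SAMP 5 wk libraries and 89.0 to 502 in AKR 25 wk, and it was called over AKR 25 wk at 2.77 ± 0.62 (adjusted p = 0.0344) but not over SAMP 5 wk at 2.76 ± 0.62 (adjusted p = 0.0528). The ratio of Spdef to Muc2 was 0.0232 to 0.0271 in SAMP 25 wk, 0.0174 to 0.0295 in SAMP 5 wk libraries and 0.0111 to 0.0230 in AKR 25 wk libraries.

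**Figure D4:**
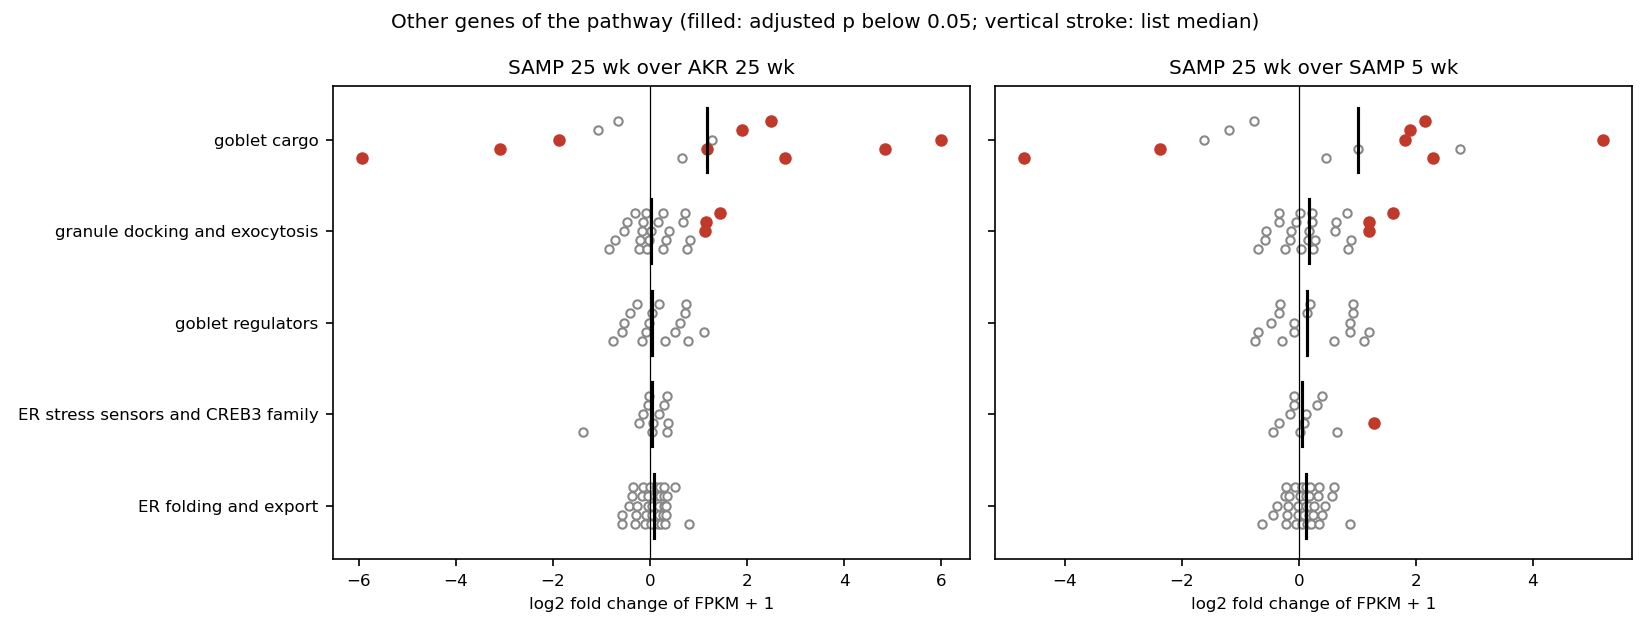
Log2 fold change of FPKM + 1 (x axis) of the tested genes of 5 lists (y axis, with the 10 members left out), for SAMP 25 wk over AKR 25 wk at the left and over SAMP 5 wk at the right; filled points had an adjusted p below 0.05 and the black stroke is the list median. Cargo genes spread widely, with medians of 1.16 and 1.02, 3 docking genes are filled in each panel, and ER folding and export genes lie around medians of 0.07 and 0.12.

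Markers of other crypt cells moved with the groups. In bulk samples, more cells of a type and more RNA per cell cannot be told apart. Tuft cell markers summed to an FPKM of 61.0 to 68.9 in SAMP 25 wk, 17.4 to 28.7 in SAMP 5 wk libraries and 13.6 to 22.5 in AKR 25 wk libraries, and 8 of 9 tested were called higher over AKR 25 wk and 4 over SAMP 5 wk. Paneth markers summed to 96166 to 152522 in SAMP 25 wk, 57111 to 73261 in SAMP 5 wk libraries and 45698 to 106267 in AKR 25 wk. Abundant genes weighed most in these sums, such as Defa17 at a mean of 40531 in SAMP 25 wk. Over AKR 25 wk 2 of 10, Ang4 and Defa17, were called higher and 1, Defa22, lower. Over SAMP 5 wk 1, Ang4, was called higher. Defa22 was also called lower in SAMP 5 wk than in AKR 25 wk. Lyz1 was lower in SAMP 25 wk but not called, at -1.73 ± 0.44 over AKR 25 wk (adjusted p = 0.0642, limma) and -1.67 ± 0.44 over SAMP 5 wk (adjusted p = 0.0934). Enterocyte markers summed to 156 to 356 in SAMP 25 wk, which overlapped with 286 to 1661 in SAMP 5 wk libraries and was below 530.4 to 17580.3 in AKR 25 wk, although 1 of 10, Fabp1, was called higher over both groups. Of 8 enteroendocrine markers, 1 was called higher over AKR 25 wk and 0 over SAMP 5 wk.

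Macrophage and dendritic markers had a summed FPKM of 38.5 to 72.8 in SAMP 25 wk, against 149.6 to 271 in SAMP 5 wk libraries and 89.0 to 279 in AKR 25 wk, with 3 of 6 called lower over AKR 25 wk (Cd68, Itgam and Fcer1g) and 2 over SAMP 5 wk (Itgam and Fcer1g). Most of the sum was Lyz2, at 23.8 to 55.1 in SAMP 25 wk, which was not called (adjusted p = 0.227 over AKR 25 wk and 0.110 over SAMP 5 wk, limma). Csf1r and Adgre1 were not called either, at log2 fold changes of -0.01 and 0.03 over AKR 25 wk and -0.34 and 0.10 over SAMP 5 wk. Stem cell, proliferation, T cell, plasma cell, and smooth muscle and fibroblast markers had 0 calls in both comparisons by limma, with 2, 0, 1, 2 and 3 genes at an unadjusted p below 0.05 over AKR 25 wk and 2, 5, 0, 0 and 3 over SAMP 5 wk. Lists this short would hold few calls at the shares of all genes. Over all 11775 genes, the counts at an unadjusted p below 0.05 were 1828 and 1948. Over SAMP 5 wk the 5 proliferation genes were of 6 tested, above the share of all genes. All 6 were lower in SAMP 25 wk, from -0.53 for Top2a to -0.99 for Mcm6 on the log2 scale, with a median of -0.79. Over AKR 25 wk that median was -0.365. What part these differences in other cell types had in the members' values was not tested.

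Likeness was measured as Pearson's r of log2(FPKM + 1) over the 9 libraries, a description that the group difference dominates. Genes were ranked among those tested, with unnamed genes and those with predicted-gene or clone-type symbols left out. The 3 genes most like Spdef were Dcbld2, Kcnk6 and Myo5c, at r of 0.98, 0.98 and 0.98, and those most like Tpsg1 were Reg4, Plcb4 and Pnliprp2, at 0.99, 0.97 and 0.97. Foxa3 was most like Pnliprp2, Enc1 and Reg4, at 0.96, 0.96 and 0.96. Reg4 and Pnliprp2 thus stood among the nearest 3 of both Foxa3 and Tpsg1. Sytl2 was most like Bmx, Tlr4 and Creb3l4, at 0.98 each, the only member whose nearest 3 held another member, and Creb3l4 was most like Bmx, Clps and Lin7a, at 0.99 each. For Ern2 the nearest were Hcfc2, Appl2 and Hoxb9 at 0.98, 0.97 and 0.97, and for Creb3l1 Tmem63a, Foxa1 and Osbpl8 at 0.97, 0.97 and 0.96. Bcas1 was most like Trim36, Usf3 and Cpeb2 at 0.96, 0.95 and 0.94, and Klf4 like Lman2l, Cgref1 and Ip6k1 at 0.92 each. Agr2, which did not separate the groups, was nearest to Washc5, Ggact and Atg4d at 0.96 each.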

How the data were processed

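RNA was sequenced from laser-captured ileal niches in 9 libraries, 3 per group of strain and age, and replicate numbers follow accession order and pair nothing. The labels call the replicates biological, and the p-values measure the spread between these libraries. The labels also mention crypt culture, without saying how it bears on captured tissue. The single table, keyed by NCBI gene number, holds FPKM as deposited by the authors. Trimmomatic, STAR, HTSeq and DESeq2 with the GRCm38 build are named per the submitters' processing notes; which made the FPKM, and whether strand was used, is not given in the sources used here. Depth and reads per gene were estimated from steps between low values of genes with 1 transcript (80.6% to 87.3% within 0.2 of a whole read), so they are approximate and no count test was run.

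The 11775 genes whose mean FPKM reached 1 were tested as log2(FPKM + 1) with limma 3.58.1 in R 4.3.3, in 1 fit of 3 group means with 6 residual degrees of freedom, a variance trend and Benjamini-Hochberg adjustment at 0.05. The pseudocount of 1 understates changes of low genes. Errors are SD over 3 libraries for FPKM and SE for log2 fold changes. The fit was also run on simulated data in which all libraries had the same spread. The real libraries differed in spread, so that run cannot vouch for the calls made here. Gene names came from RefSeq (GRCm38.p6) by gene number for 18155 rows, promoters from the same build, and exon overlaps from GENCODE vM21. Motifs were searched on both strands. Summaries and figures were made in Python 3.11.15 (pandas 2.3.3; plots with matplotlib 3.10.9).

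The members, lists and tests were chosen with earlier results of these data known. Some genes of the docking and glia lists are not reported here, and those lists are counted without them. By rule, the genes named were all members, called genes of each pathway list, 10 fixed pathway genes and the 3 genes most like each member, with cell type markers given by counts, summed level and defining markers at 0. Other names were chosen after their values were seen. These were the markers, serine proteases and further regulators named, the sex-linked, overlapping and antisense genes, and the Rab27 genes not called. Alternatives were pseudocounts of 0.1 and 5, no filter or a minimum mean of 5, 4 rescalings, only the groups compared, robust variance, library weights, each library left out and both libraries that stood apart left out. They were followed gene by gene for the members only, so the calls of other named genes carry no such check.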

Additional observations from a re-analysis of the deposited data

How the results depend on the processing

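Over 21 alternatives for each of 10 members in 3 comparisons, 531 results kept direction and side of the threshold, 34 came to pass it, 45 no longer passed it and 20 changed sign. No paired analysis was possible because the replicate numbers only name samples in accession order. The cause of the changes below was not tested. For SAMP 25 wk over AKR 25 wk, 346 genes were called, with 688 after rescaling without ribosomal RNA and defensin rows, 2514 with library weights and 158 to 492 with libraries left out. Members called there were 4, with 2 when only those groups were fitted, 7 with library weights and 0 to 6 with libraries left out. Over SAMP 5 wk, 179 genes were called, with 99 without a filter, 300 after quantile normalization, 2297 with library weights and 82 to 528 with libraries left out. Members called there were 5, with 2 without a filter, 8 after quantile normalization, 3 when only those groups were fitted, 9 with library weights and 2 to 8 with libraries left out. For SAMP 5 wk over AKR 25 wk, 65 genes were called, with 111 after rescaling without ribosomal RNA and defensin rows, 196 with library weights and 36 to 70 with libraries left out. The 1 member called under that rescaling was Bcas1, at -0.9998 on the log2 scale. Library weights ran from 0.369 to 6.06, the highest for SAMP 25 wk replicate 3. The log2 fold change of Agr2 over AKR 25 wk was 0.0002 after quantile normalization, 0.0868 with equal medians, 0.0786 with library weights and -0.26 to 0.22 with libraries left out, and over SAMP 5 wk it was -0.14 to 0.40 with libraries left out. For SAMP 5 wk over AKR 25 wk, Creb3l4 was at -0.021 as TPM, -0.25 after rescaling without ribosomal RNA and defensin rows and -0.0466 with library weights. With libraries left out, it was at -0.0821 to 0.12, Spdef at -0.55 to 0.0806, Ern2 at -0.34 to 0.0883, Creb3l1 at -0.40 to 0.0065, Agr2 at -0.45 to 0.0647 and Tpsg1 at -0.64 to 0.30. Depth is known only as an estimate, so no counting interval can be given.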
